A study of Mus musculus with 15 samples.

Results

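The genes described here are ligands that immune cells read on the cells they meet, and 10 of them were taken by name from an expression table of 24891 genes. They are CD276, CD274, PDCD1LG2, CD80, CD86, ICOSL, VTCN1 and VSIR, members or relatives of the B7 family, together with TNFRSF14 and LGALS9, and all 10 were present. CD276, which encodes B7-H3, was the target of the shRNAs. Symbols are printed in capitals, as the table lists them, although all samples are from the mouse.

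RNA was sequenced from subcutaneous tumors of 105K cells, a Tsc2-deficient line, isolated from a kidney tumor of a mouse heterozygous for Tsc2, grown in wild-type C57BL/6J hosts. The hosts were male and 6 weeks old at injection, per the study's methods. There were 15 libraries in 5 groups of 3: bulk tumors carried sh-NC, the control shRNA, or the first shRNA against B7-H3, written sh-B7-H3 (1). Sorted cells carried the control, that same shRNA or a second one, written sh-B7-H3 (2). All groups therefore share the loss of Tsc2 and carry an shRNA, the cells were pools of transduced cells rather than single clones, and sorting was a magnetic depletion of non-tumor cells. Whether replicates came from separate mice is not stated in the labels, so each p-value measures the spread between these samples.

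B7 ligands are surface proteins of the immunoglobulin family that meet receptors on T cells. CD80 and CD86 bind CD28, which stimulates a T cell, and CTLA4, which restrains it, while ICOSL stimulates through ICOS. CD274 (PD-L1) and PDCD1LG2 (PD-L2) bind the inhibitory receptor PD-1, and interferon gamma is a known inducer of CD274 through IRF1. B7-H3, VTCN1 (B7-H4) and VSIR (VISTA) are mainly known as inhibitors of T cells. Professional antigen-presenting cells are the usual source of CD80 and CD86, whereas CD276, CD274 and VTCN1 are also found on many tumors.

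The deposited values are FPKM, reads scaled by gene length and library size, and each was divided here by a median-ratio factor for its library, so that levels of different genes can be compared per length as scaled FPKM. Factors ranged from 0.647 to 1.18. A single entry, MIR6236, made up 79.7% of the summed FPKM in bulk sh-NC replicate 3, where the factor was 0.647. It made up 74.4% in bulk sh-B7-H3 (1) replicate 2 (factor 0.732) and 51.6% in sorted sh-NC replicate 2 (factor 0.7875). In the remaining libraries its share was 6.01% to 41.6%. Read totals are not in the table, and the depth of the libraries relative to the deepest, read from the spacing of low values, ranged from 0.468 to 1. Tests used limma on log2(scaled FPKM + 1) for genes that reached 1 scaled FPKM in no fewer than 3 of the libraries compared, with Benjamini-Hochberg adjustment over all genes tested, and a gene was called changed at an adjusted p below 0.05. A log2 fold change on this scale understates the change of a low gene.

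Sorted cells were low in leukocyte RNA with 1 exception. The epithelial markers KRT8, KRT18, EPCAM, CDH1, PAX8 and PAX2 were all at 1 scaled FPKM or more in every library. The summed level of 10 leukocyte markers was 337 to 662 scaled FPKM in the 6 bulk tumors and 5.90 to 12.0 in 8 of the 9 sorted libraries, but 353 in sorted sh-B7-H3 (2) replicate 1. In that library 5 T cell markers summed to 14.1 against at most 0.376 in the other 8 sorted libraries, and 4 Y-linked host genes to 4.90 against at most 0.890. Values of that library are therefore given separately wherever a ligand rested on it. Macrophage markers, 10 genes, summed to 31.0 to 44.6 scaled FPKM in sorted controls and 61.8 to 95.2 in the other 5 sorted libraries labelled sh-B7-H3. With either shRNA 2 of the 5 tested were called higher, beside 9.03% of all genes with (1) and 11.7% with (2). CD68 made up most of each of these sums, at 25.1 to 33.5 in controls and 55.9 to 83.4 with sh-B7-H3 (1). In sh-B7-H3 (2) replicates 2 and 3 it was at 61.4 and 51.1. CSF1R rose too, from at most 1.30 in controls to 4.78 or more. C1QA did not rise throughout, at 1.39 to 2.74 in controls, 2.40 to 2.86 with (1), and 0.877 and 0.866 in those 2 replicates of (2). Fibroblast markers, 6 genes, summed to 31.3 to 77.8 in sorted controls, 49.2 to 81.8 with sh-B7-H3 (1) and 114 to 152 with sh-B7-H3 (2). Of the 5 tested, 3 were called higher with sh-B7-H3 (2), beside 11.7% of all genes. The sums with sh-B7-H3 (2) lay within the 81.5 to 156 of bulk sh-NC tumors. The Y-linked host genes summed to 0.278 to 0.471 in sorted controls and 0.406 to 0.890 in the other 5 libraries labelled sh-B7-H3. In the 8 sorted libraries other than the host-rich one the sums were 1.51 to 2.52 for dendritic cell, 0 to 0.821 for B cell, 0 to 2.17 for neutrophil and 0.251 to 0.666 for endothelial markers. The part of these cells in the ligand values was not tested.

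CD276 was the second most abundant ligand of the set in control cells. In sorted sh-NC cells it stood at 34.1, 20.1 and 17.3 scaled FPKM, or 23.8 ± 9.0 (SD, n = 3). Sorted cells labelled sh-B7-H3 (1) had 7.32, 14.0 and 11.5, or 10.96 ± 3.38 (SD, n = 3), with every library below every control. Cells labelled sh-B7-H3 (2) had 23.4, 25.5 and 25.8, within the range of the controls. In bulk tumors CD276 was at 20.8, 23.3 and 23.6 with sh-NC and at 22.4, 17.9 and 24.5 in those labelled sh-B7-H3 (1), and these groups overlapped. Its RNA thus did not follow the label in bulk tumors with the first shRNA or in sorted cells with the second, so all libraries are named by their labels.

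The log2 fold change of CD276 in sorted cells was -1.04 with sh-B7-H3 (1) (SE 0.29, limma adjusted p = 0.0547) and 0.12 with sh-B7-H3 (2) (SE 0.23, limma adjusted p = 0.775). The first value lay next to the threshold and crossed it with FPKM as deposited (log2 fold change -0.86, limma adjusted p = 0.0306), in the fit of all 15 libraries (limma adjusted p = 0.0053) and without sorted sh-NC replicate 3 (limma adjusted p = 0.0276). Without sorted sh-NC replicate 1, CD276 was called higher in cells labelled sh-B7-H3 (2), by 0.40 on the log2 scale (limma adjusted p = 0.0363). Between the shRNAs, CD276 was lower with (1) than with (2) by a log2 difference of -1.16 (SE 0.20, limma adjusted p = 0.0277), the 1 member called among 7 tested, where 1.64% of all tested genes were called lower with (1). That call was lost without sh-B7-H3 (1) replicate 3 or without either sh-B7-H3 (2) replicate 2 or 3, with limma adjusted p from 0.0949 to 0.109. In bulk tumors the log2 fold change of CD276 was -0.07 (SE 0.13, limma adjusted p = 0.709).

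**Figure D1:**
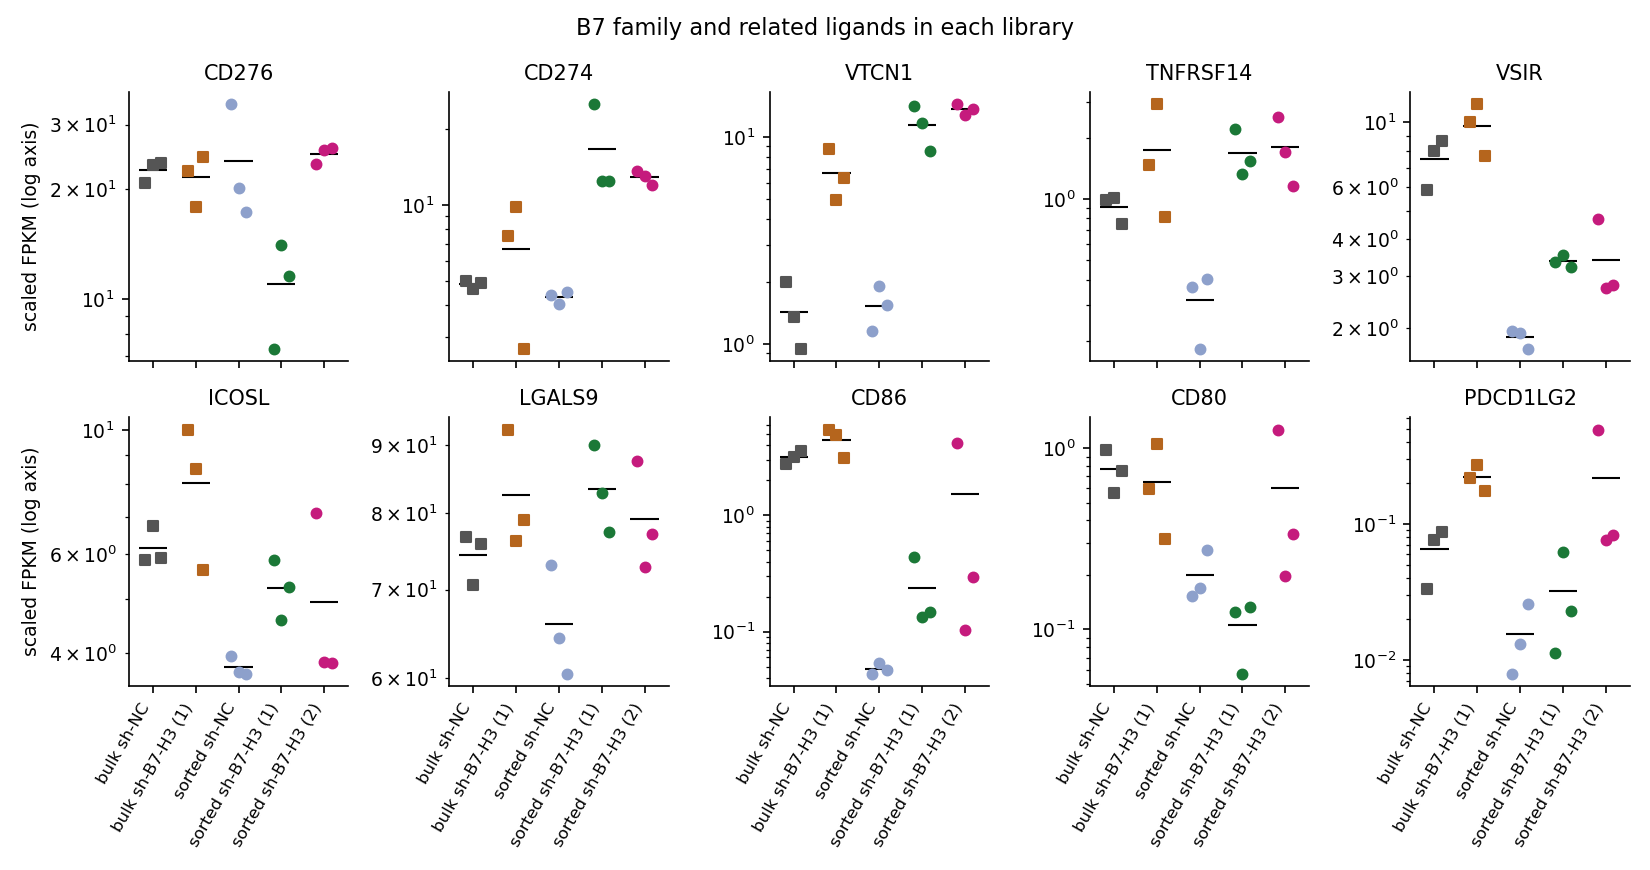
Scaled FPKM of the 10 ligands (log axes that differ between panels) in each of 15 libraries, by group on the horizontal axis. Squares are bulk tumors, circles are sorted cells, and black lines are means of 3 libraries. VTCN1 and CD274 are higher in all 6 sorted libraries labelled sh-B7-H3 than in the 3 sorted sh-NC libraries, and CD86 reaches 4.15 in sorted sh-B7-H3 (2) replicate 1 alone among sorted libraries.

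In sorted cells 3 ligands were called higher with both shRNAs, namely VTCN1, CD274 and TNFRSF14, the last of which passed the filter only through its levels with those shRNAs. The sequences just upstream of these genes, 250 bases before the RefSeq start on the strand of the gene (GRCm38.p6), are shown so that these genes can be set side by side, with LGALS9 as a member that was not called. Capitals mark a match on either strand to a pair of GAAA motifs separated by any 2 bases, the form of site that interferon regulatory factors (IRFs) bind. CD274 lies at chr19:29367188-29367437 on the plus strand, VTCN1 at chr3:100825209-100825458 on the plus strand, TNFRSF14 at chr4:154928078-154928327 on the minus strand and LGALS9 at chr11:78984925-78985174 on the minus strand.
CD274: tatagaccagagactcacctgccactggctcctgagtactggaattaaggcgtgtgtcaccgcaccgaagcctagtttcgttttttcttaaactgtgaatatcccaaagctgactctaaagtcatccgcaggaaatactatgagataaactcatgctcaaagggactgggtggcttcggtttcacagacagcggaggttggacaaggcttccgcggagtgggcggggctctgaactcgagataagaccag
VTCN1: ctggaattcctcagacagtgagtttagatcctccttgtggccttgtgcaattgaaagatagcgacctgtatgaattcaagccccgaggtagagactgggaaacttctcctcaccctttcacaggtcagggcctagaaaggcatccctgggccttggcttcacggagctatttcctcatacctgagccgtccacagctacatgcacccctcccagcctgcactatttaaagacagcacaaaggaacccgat
TNFRSF14: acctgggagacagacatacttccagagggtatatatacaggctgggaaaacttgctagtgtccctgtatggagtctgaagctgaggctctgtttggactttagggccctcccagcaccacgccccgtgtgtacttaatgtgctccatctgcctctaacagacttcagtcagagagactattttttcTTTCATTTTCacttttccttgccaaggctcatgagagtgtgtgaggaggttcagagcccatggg
LGALS9: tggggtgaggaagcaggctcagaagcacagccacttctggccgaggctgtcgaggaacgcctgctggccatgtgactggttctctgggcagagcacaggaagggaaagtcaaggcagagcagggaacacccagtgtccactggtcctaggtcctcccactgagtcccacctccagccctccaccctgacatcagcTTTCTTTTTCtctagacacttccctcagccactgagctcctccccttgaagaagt

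Of the 9 members with a promoter in the RefSeq table, TNFRSF14 and LGALS9 held such a pair, 1 match each, ending 55 and 46 bases before the start. Among all 32851 windows of this length, 2.98% held it. The interferon gamma activated site TTCNNNGAA, which reads alike on both strands, was in none of the 9 windows and in 7.02% of all windows. CD274 and VTCN1 thus held neither motif in these letters, and TNFRSF14, which was called, and LGALS9, which was not, both held the first.

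VTCN1, an inhibitory ligand, showed the largest log2 fold change among the tested members in both sorted comparisons. Sorted sh-NC cells had 1.15, 1.91 and 1.54 scaled FPKM, a level of 1.53 ± 0.378 (SD, n = 3). With sh-B7-H3 (1) VTCN1 stood at 14.0, 11.7 and 8.53, and with sh-B7-H3 (2) at 14.4, 12.8 and 13.7. None of the 6 libraries came near the controls, and the means were 7.45 and 8.89 times that of sh-NC. The log2 fold changes were 2.28 (SE 0.20, limma adjusted p = 0.0002) and 2.54 (SE 0.15, limma adjusted p = 5.53e-05). The spacing of low values gave whole reads for VTCN1 in every library, at the smallest whole numbers that the values allow 220 to 270 reads in the sorted controls and 1532 to 2001 in the 6 libraries labelled sh-B7-H3.

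CD274, the ligand of PD-1, had the next largest log2 fold change in both. Its sorted controls lay close together at 4.41, 4.04 and 4.53 scaled FPKM. Cells labelled sh-B7-H3 (1) had 25.1, 12.4 and 12.4, and those labelled sh-B7-H3 (2) had 13.6, 13.1 and 12.0, so that 5 of the 6 libraries fell between 12.0 and 13.6 and sh-B7-H3 (1) replicate 1 stood above them. Means were 3.85 and 2.99 times the control mean. The log2 fold change was 1.65 with sh-B7-H3 (1) (SE 0.25, limma adjusted p = 0.0035) and 1.38 with sh-B7-H3 (2) (SE 0.12, limma adjusted p = 0.0002). Without the high library the first value was 1.33 (limma adjusted p = 0.0019).

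TNFRSF14 encodes HVEM, the ligand of BTLA and CD160 and a receptor for LIGHT. Its sorted controls were below the filter, at 0.369, 0.183 and 0.401 scaled FPKM. It passed only through its levels with the shRNAs against B7-H3, at 2.20, 1.32 and 1.54 with (1) and 2.54, 1.71 and 1.15 with (2), so its place among the tested genes already depended on being high there. The groups did not overlap. Its log2 fold changes were 1.02 (SE 0.15, limma adjusted p = 0.0026) and 1.06 (SE 0.19, limma adjusted p = 0.0067). Its means were 5.31 and 5.67 times that of sh-NC, larger ratios than those of CD274. In whole reads the controls had 6 to 20 and the 6 other libraries 48 to 86.

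VSIR rose to a smaller extent. VSIR, the inhibitory ligand and receptor VISTA, had 1.95, 1.92 and 1.70 scaled FPKM in sorted controls. It had 3.35, 3.53 and 3.22 with sh-B7-H3 (1), a log2 fold change of 0.61 (SE 0.11, limma adjusted p = 0.0083). With sh-B7-H3 (2) it had 4.70, 2.73 and 2.80, the highest being the library rich in host RNA, and the log2 fold change of 0.60 (SE 0.18, limma adjusted p = 0.0584) did not pass. Without that library it was 0.40 (limma adjusted p = 0.0985). The call with sh-B7-H3 (1) was lost without replicate 2 of that group (limma adjusted p = 0.0575).

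ICOSL and LGALS9 were not called in sorted cells. ICOSL, which stimulates T cells through ICOS, had 3.96, 3.71 and 3.68 scaled FPKM in controls, 5.87, 4.59 and 5.24 with sh-B7-H3 (1), and 7.11, 3.86 and 3.85 with sh-B7-H3 (2). Its log2 fold changes were 0.38 (SE 0.13, limma adjusted p = 0.1003) and 0.27 (SE 0.21, limma adjusted p = 0.435). LGALS9, or galectin-9, a secreted lectin that binds TIM-3, was the most abundant member in all 5 groups. Its sorted controls had 73.1, 64.4 and 60.5 scaled FPKM against 90.0, 82.8 and 77.3 with sh-B7-H3 (1) and 87.5, 72.8 and 77.1 with sh-B7-H3 (2). The log2 fold changes were 0.33 (95% confidence interval 0.02 to 0.65, limma adjusted p = 0.178) and 0.26 (-0.06 to 0.58, limma adjusted p = 0.244).

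In counts, 4 of the 7 members tested were called higher with sh-B7-H3 (1), where 9.03% of all 11167 tested genes were, and 3 of 7 with sh-B7-H3 (2), where 11.7% were. No member was called lower in either. Without the host-rich library, CD274 and VTCN1 were called with sh-B7-H3 (2), at log2 fold changes of 1.35 (limma adjusted p = 0.0014) and 2.50 (limma adjusted p = 0.0004), and TNFRSF14 no longer passed the filter. With all 6 libraries as 1 group against sh-NC, 4 of 7 were called higher (VTCN1, CD274, TNFRSF14 and VSIR) and 12.6% of all genes. The median log2 fold change of the 7 was 0.61 and 0.60 with the separate shRNAs, against 0.002 and 0.01 over all genes tested. These comparisons share the 3 sh-NC libraries, and TNFRSF14 entered through its high group. The members were chosen with earlier results of these data known, so the counts and medians are a description. Leaving FPKM as deposited moved the median of all genes by 0.171 for (1) and 0.202 for (2), to which the changes above are relative. With the leukocyte marker score as a covariate, 1 member, VTCN1, was called with sh-B7-H3 (1). That fit called 665 of all genes, against 1496 without the score. CD274 then had a log2 fold change of 1.38 (limma adjusted p = 0.0745) and TNFRSF14 of 0.86 (limma adjusted p = 0.0656). The leukocyte markers summed to 5.90 to 9.93 scaled FPKM in these controls and 8.83 to 12.0 with sh-B7-H3 (1).

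Direct comparison of the shRNAs gave no call for the ligands that rose. The log2 difference, (1) minus (2), was 0.27 for CD274 (95% confidence interval -0.30 to 0.84), -0.26 for VTCN1 (-0.64 to 0.12), -0.04 for TNFRSF14 (-0.51 to 0.43) and 0.01 for VSIR (-0.38 to 0.41). These values come from the fit that did not pair same-numbered libraries. In no alternative fit, the paired one included, were these ligands called (lowest limma adjusted p 0.192). A missed threshold does not show equal levels.

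**Figure D2:**
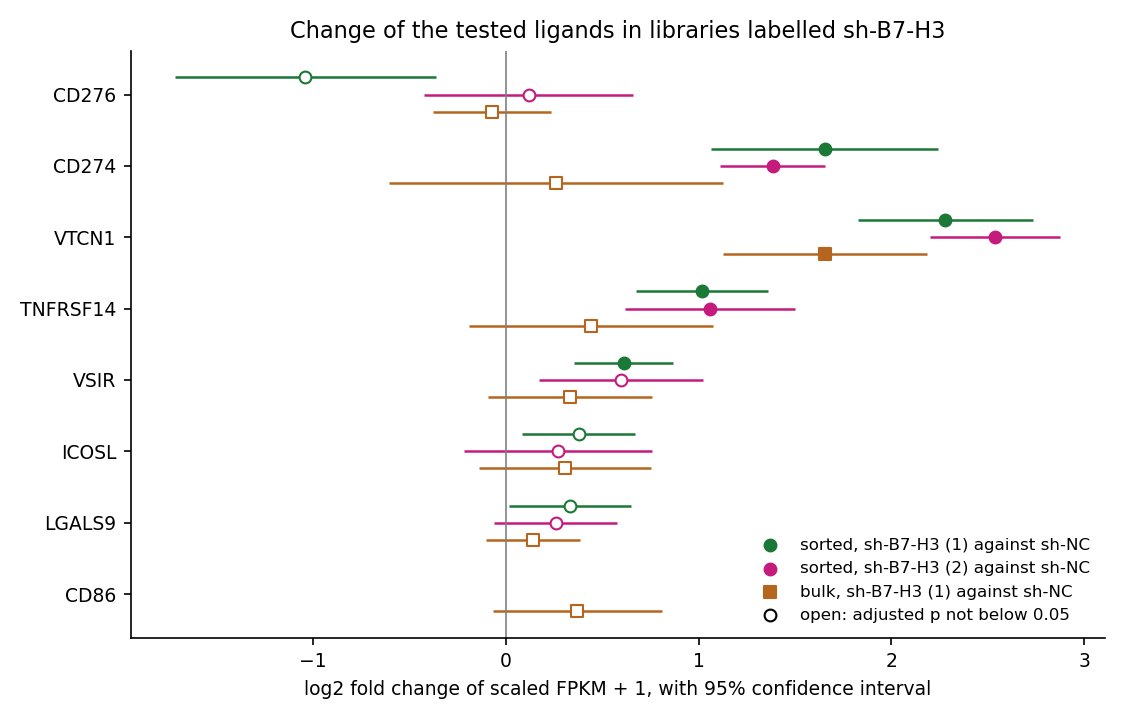
Log2 fold change against sh-NC (horizontal axis, with 95% confidence interval) of 8 ligands that passed the filter on low values in at least 1 of the 3 comparisons drawn. Filled marks have a limma adjusted p below 0.05. VTCN1 is filled in all 3 comparisons at 2.28, 2.54 and 1.66, and CD274 and TNFRSF14 are filled in sorted cells and open in bulk tumors.

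The remaining ligands, CD86, CD80 and PDCD1LG2, were near the floor in sorted cells. CD86 had 0.043, 0.054 and 0.047 scaled FPKM in sorted controls, which is 3 or 4 reads a library. With sh-B7-H3 (1) it had 0.436, 0.134 and 0.148, or 28, 11 and 14 reads. With sh-B7-H3 (2) it had 4.15 in the host-rich replicate 1 and 0.104 and 0.297 in the others, or 239, 6 and 21 reads. All 6 libraries were above the 3 controls (exact two-sided permutation test of the means, p = 0.0238, adjusted p = 0.146 over 19 such tests of members below the filter). CD80 had 0.153, 0.170 and 0.273 in sorted controls, 0.126, 0.057 and 0.134 with sh-B7-H3 (1), and 1.27, 0.198 and 0.338 with sh-B7-H3 (2). PDCD1LG2, which lies 22823 bases from CD274 on chromosome 19, was the lowest member in all 5 groups, with 1 to 3 reads in each sorted control, 1 to 7 with sh-B7-H3 (1), and 39, 6 and 8 with sh-B7-H3 (2). The highest value of CD86, CD80 and PDCD1LG2 among sorted libraries was in each case sh-B7-H3 (2) replicate 1. In these tests 3 libraries against 3 cannot give p below 0.1, and none of the 19 had an adjusted p below 0.05.

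Bulk tumors hold host cells as well, and in them fewer cells of a type and less RNA per cell cannot be told apart. VTCN1 rose in bulk tumors labelled sh-B7-H3 (1) too, from 1.99, 1.35 and 0.950 scaled FPKM to 8.74, 4.98 and 6.34, a log2 fold change of 1.66 (SE 0.22, limma adjusted p = 0.0053). It was the only member called among 8 tested, where 12.8% of all 11804 tested genes were called higher. CD274 had 4.98, 4.65 and 4.89 in bulk controls and spread widely with sh-B7-H3 (1), at 7.55, 9.83 and 2.69, so that its log2 fold change of 0.26 came with a confidence interval from -0.61 to 1.13 (limma adjusted p = 0.6252). TNFRSF14 was spread in the same order, at 1.47, 2.92 and 0.815, against 0.984, 1.01 and 0.751 in controls. Without bulk sh-B7-H3 (1) replicate 3, 4 members were called higher, with log2 fold changes of 0.72 for CD274 (limma adjusted p = 0.0179), 0.57 for CD86 (limma adjusted p = 0.0335) and 0.52 for ICOSL (limma adjusted p = 0.0354) beside VTCN1. Leaving out 1 bulk library also moved the number of all genes called, from 2520 to between 546 and 3793, so this count is not particular to the ligands. Bulk sh-B7-H3 (1) replicate 3 also had the lowest leukocyte marker sum of the 6 bulk tumors, 337 scaled FPKM, and the lowest T cell marker sum of its group, 4.97 against 13.8 and 15.1. T cell markers summed to 1.205 to 2.06 in bulk controls, and the fibroblast markers to 81.5 to 156 there and 267 to 638 with sh-B7-H3 (1). The part of either cell type in the ligand values was not tested.

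None of the other members tested was called in bulk tumors. CD86 had 2.76, 3.19 and 3.55 scaled FPKM with sh-NC and 5.47, 4.87 and 3.09 with sh-B7-H3 (1), ICOSL had 5.86, 6.73 and 5.92 against 10.01, 8.52 and 5.62, and VSIR had 5.89, 7.96 and 8.62 against 10.01, 11.5 and 7.68. In all of these the groups overlapped, and replicate 3 was the lowest of the labelled group. LGALS9 had 76.7, 70.6 and 75.8 against 92.5, 76.2 and 79.0. CD80 was below the filter at 0.567 to 0.982 and 0.314 to 1.05. PDCD1LG2 was at 0.033, 0.076 and 0.088 in controls and 0.218, 0.269 and 0.174 with sh-B7-H3 (1), or 3 to 6 against 10 to 22 reads. These did not overlap (p = 0.1 by exact two-sided permutation, the lowest value possible here).

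Whether the sh-B7-H3 (1) effect differed between sorted cells and bulk tumors was asked with an interaction term. None of the 8 members tested passed in limma, where 0.464% of all genes did, and 2 had an unadjusted p below 0.05. CD274 had a log2 difference of 1.39, sorted minus bulk (SE 0.49, limma adjusted p = 0.265), and CD276 one of -0.97 (SE 0.36, limma adjusted p = 0.276).

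Bulk against sorted material separated the ligands by their levels in host-rich tissue. In sh-NC, CD86 had a log2 difference, bulk minus sorted, of 1.99 (SE 0.11, limma adjusted p = 1.86e-05), VSIR one of 1.56 (SE 0.15, limma adjusted p = 0.0003) and ICOSL one of 0.58 (SE 0.12, limma adjusted p = 0.0150). These were 3 of 7 tested members, where 10.4% of all genes were called higher in bulk, and CD86 passed the filter only through the bulk libraries. The ICOSL call was lost without any 1 of the 3 bulk replicates or sorted replicate 2. CD276, CD274, VTCN1 and LGALS9 were not called, and their log2 differences lay between -0.07 and 0.17. TNFRSF14, not tested here, had 0.751 to 1.01 scaled FPKM in bulk and 0.183 to 0.401 in sorted controls.

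With sh-B7-H3 (1) the same comparison called CD86 higher in bulk by 2.13 (SE 0.19, limma adjusted p = 0.0003), VSIR by 1.28 (SE 0.15, limma adjusted p = 0.0010) and CD276 by 0.95 (SE 0.22, limma adjusted p = 0.0150) on the log2 scale, 3 of 8 members where 21.1% of all genes were higher in bulk. CD86 again passed the filter through bulk alone. CD274 was lower in bulk, with a log2 difference of -1.26 (SE 0.42, limma adjusted p = 0.0477), and so was VTCN1 at -0.70 (SE 0.22, limma adjusted p = 0.0414), where 17.1% of all genes were lower. The CD274 call was kept only without bulk replicate 2, and was lost without any other of the 6 libraries. The VTCN1 call was lost without bulk replicates 2 or 3 or sorted replicates 1 or 2, and the CD276 call without bulk replicate 1.

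**Figure D3:**
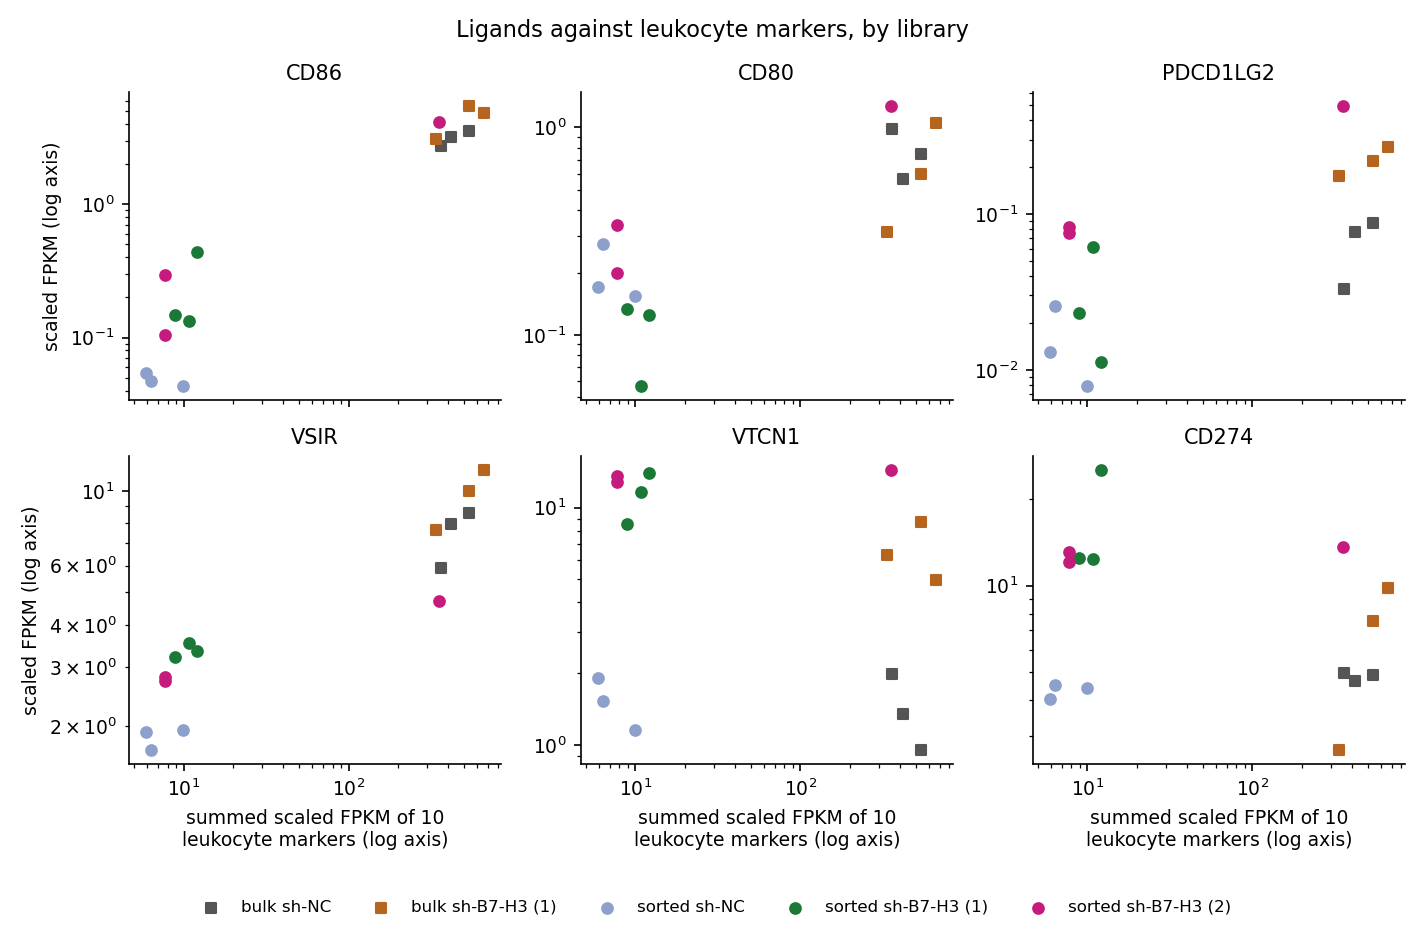
Scaled FPKM of 6 ligands (vertical axes, log) against the summed scaled FPKM of 10 leukocyte markers (horizontal axis, log) in each library, bulk as squares and sorted as circles. CD86 is at 2.76 or more in the 7 libraries with a marker sum of 337 or more and at 0.436 or less in the other 8, while VTCN1 and CD274 separate by shRNA label within sorted cells.

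Levels were also set against the leukocyte markers. CD86 was 0.663% to 1.02% of the leukocyte marker sum in the 6 bulk tumors and 1.18% in sorted sh-B7-H3 (2) replicate 1, and 0.437% to 3.84% in the other 8 sorted libraries. VSIR was 1.61% to 2.28% of that sum in bulk tumors and 1.33% in the host-rich sorted library, but 19.6% to 36.5% in the other 8. CD80 was 0.0934% to 0.272% in bulk tumors, 0.360% in the host-rich library and 0.525% to 4.37% in the other 8, and PDCD1LG2 was 0.0092% to 0.0517%, 0.140% and 0.0793% to 1.06%, from few reads in sorted cells. The shares of VSIR, CD80 and PDCD1LG2 in those 8 sorted libraries lay above all bulk values, while those of CD86 overlapped them. These shares are given as a description, since the marker sum itself differed by group.

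The order of the levels changed with the shRNA label. In sorted sh-NC cells it ran LGALS9, CD276, CD274, ICOSL, VSIR, VTCN1, TNFRSF14, CD80, CD86 and PDCD1LG2, with neighbours overlapping only between VSIR and VTCN1 and between TNFRSF14 and CD80. With sh-B7-H3 (1), CD274 took place 2 and VTCN1 place 3, and CD276 fell from place 2 to place 4, although CD274 overlapped with VTCN1 and VTCN1 with CD276. With sh-B7-H3 (2) CD276 kept place 2, ahead of VTCN1 and CD274, which overlapped. In bulk sh-NC tumors VSIR held place 3 and VTCN1 place 7.

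Genes of the interferon gamma route to CD274 were described from a list of 13, from receptor to transcription factor to feedback inhibitor. The list was chosen with earlier results of these data known, so its counts are a description. With sh-B7-H3 (1), 3 were called higher and none lower, and with sh-B7-H3 (2), 4 and none, beside 9.03% and 11.7% of all genes called higher, at median log2 fold changes of 0.27 and 0.39. IRF1, the transcription factor that acts on the CD274 promoter, had 7.12, 6.13 and 8.07 scaled FPKM in sorted controls, 84.0, 41.9 and 50.4 with sh-B7-H3 (1) and 77.6, 50.8 and 54.0 with sh-B7-H3 (2). Its log2 fold changes were 2.83 (SE 0.25) and 2.91 (SE 0.19), with limma adjusted p = 0.0002 and 7.00e-05. SOCS1, which inhibits interferon signalling, had log2 fold changes of 1.45 and 1.60 (limma adjusted p = 0.0026 and 0.0005). Sorted sh-B7-H3 (1) replicate 1 was the highest of its group for CD274 (25.1), IRF1 (84.0) and SOCS1 (6.56). With all 6 libraries as 1 group, 6 were called higher, beside 12.6% of all genes. JAK1, a kinase of this route, was lower by a log2 fold change of -0.44 (limma adjusted p = 0.0476), where 7.92% of all genes were called lower.

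In bulk tumors labelled sh-B7-H3 (1), 4 of the 13 genes were called higher, beside 12.8% of all genes, and none lower. IRF1 rose from 11.3, 10.2 and 10.6 scaled FPKM to 34.2, 42.0 and 17.7, a log2 fold change of 1.38 (SE 0.29, limma adjusted p = 0.0193). Replicate 3 was again the lowest of its group for IRF1 and CD274.

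**Figure D4:**
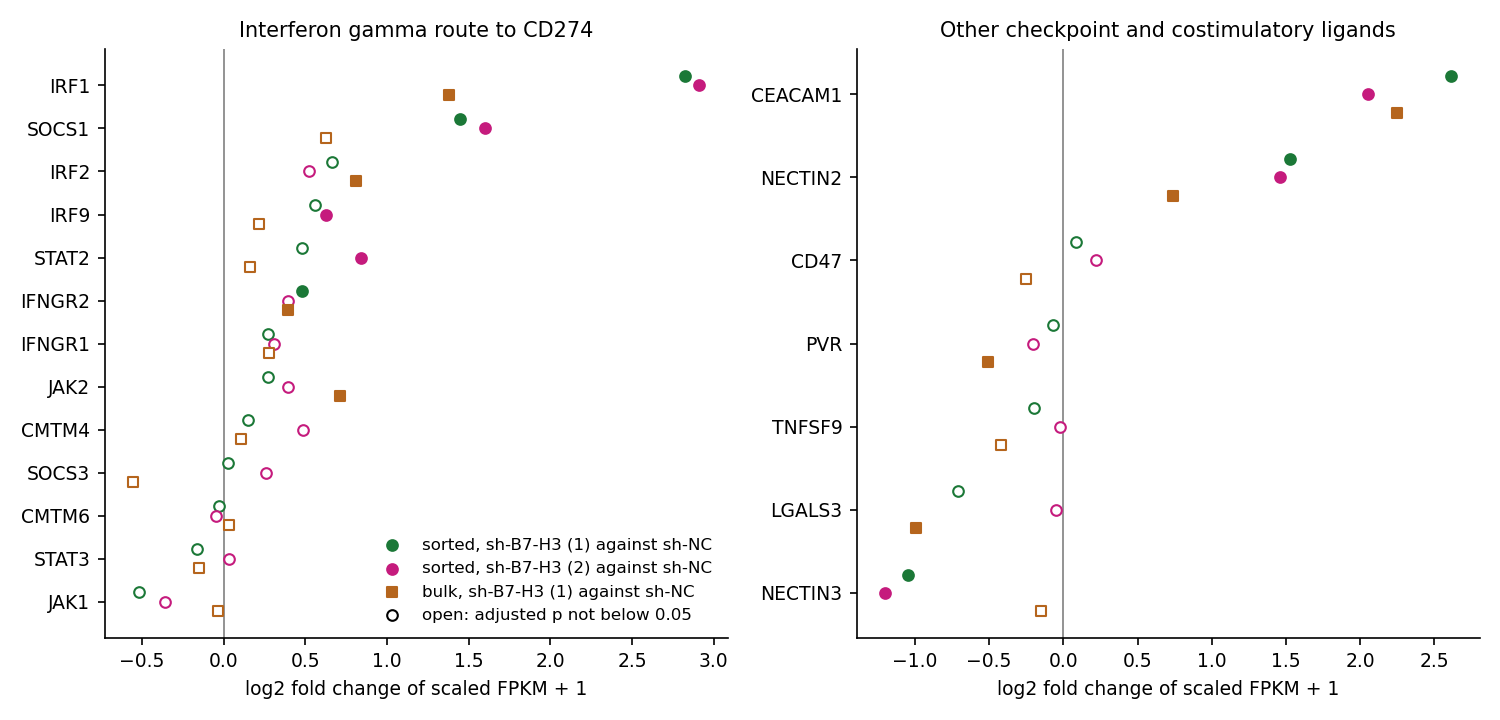
Log2 fold changes against sh-NC (horizontal axes) for 13 genes of the interferon gamma route to CD274 (left) and for the 7 other checkpoint and costimulatory ligands tested in both sorted comparisons (right), with circles for sorted cells, squares for bulk tumors and filled marks for a limma adjusted p below 0.05. IRF1 and SOCS1 are filled in both sorted comparisons, and CEACAM1 and NECTIN2 in all 3.

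Other checkpoint and costimulatory ligands moved in both directions. Of 17 listed, 7 were tested in sorted cells, and with either shRNA 2 were called higher and 1 lower. Of all genes, 9.03% were called higher and 4.37% lower with (1), and 11.7% higher and 7.45% lower with (2). CEACAM1, an inhibitory adhesion molecule and a ligand of TIM-3, went from 4.57, 4.63 and 1.90 scaled FPKM to 23.1, 32.2 and 25.2 with (1) and 16.4, 18.6 and 18.0 with (2), with log2 fold changes of 2.62 and 2.05 (limma adjusted p = 0.0004 and 0.0012). NECTIN2, a ligand of CD226 and TIGIT, went from 8.01, 7.54 and 6.64 to 23.5, 21.3 and 24.6 and to 21.1, 21.5 and 23.7, with log2 fold changes of 1.52 and 1.46 (limma adjusted p = 0.0002 for both). NECTIN3 fell, by log2 fold changes of -1.05 and -1.20 (limma adjusted p = 0.0091 and 0.0170). In bulk tumors 2 of 10 were called higher, CEACAM1 at 2.25 and NECTIN2 at 0.74, where 12.8% of all genes were called higher. Another 2 were lower, LGALS3 (galectin-3) at -0.996 and PVR, another ligand of TIGIT, at -0.51, where 8.51% of all genes were called lower. NECTIN2 was the 1 gene of this list whose sh-B7-H3 (1) effect differed between sorted and bulk material, by 0.79 (SE 0.14, limma adjusted p = 0.0421). Between bulk and sorted sh-NC material 3 of 9 were called higher in bulk, where 10.4% of all genes were. These were CD48 at 2.70, CD200 at 1.68 and NECTIN2 at 0.55. NECTIN3 was lower at -0.70, where 6.48% of all genes were. Between bulk and sorted sh-B7-H3 (1) material 3 of 10 were called higher and 3 lower, where 21.1% and 17.1% of all genes were. Among them were CD48 at 2.96 and PVR at -0.58. CD48 and CD200 were below 1 scaled FPKM in the sorted libraries of these comparisons.

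Receptors of the ligands were mostly below the filter. Of 10 listed, RGMB and IGSF11, partners of PDCD1LG2 and VSIR, were tested in sorted cells, and HAVCR2 (TIM-3) in bulk tumors as well. In limma none was called in the 3 sorted comparisons with sh-NC or in bulk sh-B7-H3 (1) against sh-NC, where the count at an unadjusted p below 0.05 was 0 with sh-B7-H3 (1), 1 with sh-B7-H3 (2), 1 with both and 2 in bulk. HAVCR2 had 1.81 to 2.13 scaled FPKM in bulk and 0.432 to 0.753 in sorted sh-NC material, so that it passed the filter through bulk alone, with a log2 difference of 0.94 (limma adjusted p = 0.0019). It was the 1 called of 3 tested there, where 10.4% of all genes were higher in bulk. Between bulk and sorted sh-B7-H3 (1) material all 3 tested were called, 2 higher in bulk and 1 lower. Of all genes, 21.1% were higher and 17.1% lower in that comparison. Of the genes that link mTORC1 to CD276, SMURF1, an E3 ubiquitin ligase, was the 1 called among 7 tested in the comparisons with sh-NC. Its log2 fold change was 0.82 with sh-B7-H3 (2) (limma adjusted p = 0.0204) and 0.40 in bulk tumors (limma adjusted p = 0.0355). Of all genes, 11.7% and 12.8% were called higher in these comparisons, so 1 of 7 lies near the share of all genes. With sh-B7-H3 (1) in sorted cells none of the 7 was called by limma, and 1 had an unadjusted p below 0.05. Between bulk and sorted sh-B7-H3 (1) material 4 of the 7 were called higher in bulk, where 21.1% of all genes were. These were TSC1, TSC2, MTOR and RPTOR, at log2 differences of 0.42, 0.81, 0.35 and 0.41.

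The genes whose log2 levels were most like those of each ligand were found by Pearson's r, as a description. For CD274 over the 9 sorted libraries they were GBP10 (r = 0.991), GM4951 (0.990) and GBP6 (0.989), and for CD276 LRP12 (0.970), LRRC28 (0.968) and SLC18B1 (0.963), among 11291 genes. Over all 15 libraries and 11565 genes, VTCN1 was most like PLS1 (0.986), IL18R1 (0.985) and MPZL2 (0.983), CD86 like CYBB (0.994), GATM (0.993) and CD48 (0.993), and VSIR like SPI1 (0.980), FRMD4B (0.979) and TLR1 (0.975). ICOSL was most like ZMYND15 (0.957), TLR1 (0.934) and ACP5 (0.930), TNFRSF14 like UBA7 (0.949), AW112010 (0.942) and ITGB7 (0.940), and LGALS9 like SLC10A7 (0.941), GALNT7 (0.915) and SP100 (0.893). All of these share libraries, groups and scaling. Among the members, the r of CD274 over the 9 sorted libraries was 0.935 with TNFRSF14, 0.932 with VTCN1 and 0.854 with LGALS9, and -0.553 with CD276.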

How the data were processed

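The deposited table holds FPKM, 1 column per library, although it is named for gene counts. The study's methods name the VIPER pipeline for differential expression and the labels the genome build mm10, while the aligner and annotation that the authors used for this table are not given in the sources used here. Libraries were single-end mRNA libraries. The study's methods and the labels name different library kits. A second deposited table holds log2(FPKM + 1) of 1000 genes, and 999 matched the first to within 8.91e-08. Of 24917 entries, 26 with symbols turned into dates were left out. A scaling factor per library was taken as its median ratio to the geometric mean, from the 9872 genes that reached 1 FPKM in all 15 libraries. Tests used limma 3.58.1 under R 4.3.3 on log2(scaled FPKM + 1), with the prior variance following the mean, and were tested on simulated data. Members below the filter had exact permutation tests. Intervals and read numbers cover counting or replicate error only. Scripts ran under Python 3.11.15, numpy 2.4.6, pandas 2.3.3 and scipy 1.17.1. All sequences came from RefSeq tables of GRCm38.p6, in which 9 of the 10 members matched, all but CD86.

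The members and gene lists were chosen with earlier results of these data known, and 1 gene of the interferon gamma list is not reported here. Named genes are all members, up to 4 called genes of each list in a comparison, and the 3 genes most alike each member. Marker lists covered leukocytes, macrophages, dendritic cells, B cells, T cells, neutrophils, fibroblasts, endothelial and epithelial cells and Y-linked genes. Groups and replicate numbers came from the labels. Same-numbered libraries of sorted sh-B7-H3 (1) and (2) deviated together, with correlations of 0.208, 0.229 and 0.209 over 12202 genes, so the numbers were taken to pair these 2 groups. A fit with the replicate block called 1863 genes there against 382 without it, and CD276 kept its call (limma adjusted p = 0.0193).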

Additional observations from a re-analysis of the deposited data

Results flagged for a closer look

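Among the 6 sorted libraries labelled sh-B7-H3, 4 of the 10 ligands had 1 library far above the rest, and for 3 of the 4 it was the same library. Chance alone would set apart about 1 group in 20 for independent draws from 1 normal group, but these libraries hold 2 shRNAs. The share of all genes set apart in this way was not computed, so the count is a description. For CD86, CD80 and PDCD1LG2 the high library was sh-B7-H3 (2) replicate 1, the one rich in leukocyte markers. Its gap to the next library was 0.829, 0.691 and 0.826 of the whole range of log2(scaled FPKM + 1), above Dixon's critical value for 6 libraries. The level of CD86 there was 4.15 scaled FPKM against 0.104 to 0.436 in the other 5, of CD80 1.27 against 0.057 to 0.338, and of PDCD1LG2 0.492 against 0.011 to 0.082. The leukocyte markers summed to 353 scaled FPKM in this library and to 7.71 to 12.0 in the other 5, and their part in these values was not tested.

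For CD274 the high library was sh-B7-H3 (1) replicate 1, at 25.1 scaled FPKM against 12.0 to 13.6 in the other 5, with a gap of 0.836 of the range. Its leukocyte marker sum of 12.0 was also the highest of those 8 sorted libraries that were low in leukocyte RNA. The CD276 level, 7.32, was the lowest of all 15 libraries.

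The level of CD276 differed between the shRNAs, with a log2 difference, (1) minus (2), of -1.16 (SE 0.20, limma adjusted p = 0.0277). That call was lost in 4 of 15 alternative fits (highest limma adjusted p 0.109). All 3 libraries with (1), at 7.32 to 14.0 scaled FPKM, lay below all 3 with (2), at 23.4 to 25.8.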

How the results depend on the processing

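Over 59 log2 values of members and 912 alternative fits of them, 839 kept their direction and side of the threshold, 29 lost a call, 13 gained one and 31 reversed in sign, none of these with an adjusted p below 0.05. The count of members called with both shRNAs as 1 group stayed at 3 to 5 that with sh-B7-H3 (2) at 2 to 4 and that of the interaction at 0. The other counts moved, and the cause was not tested unless named. With sh-B7-H3 (1) in sorted cells 1 member was called under the leukocyte score, where 665 of all genes were called against 1496 as reported. The count was 2 to 5 when single libraries were left out, where TNFRSF14 fails the filter without any 1 of the 3 libraries of that shRNA. Between the shRNAs 0 were called without the filter and 0 to 1 with a library left out. In bulk tumors 2 were called without the filter, 0 with the filter in every library (a control of VTCN1 lies below it), and 1 to 4 with a library left out. Between bulk and sorted sh-NC material, 5 were called without the filter and 1 to 3 with a library left out (CD86 then has too few bulk libraries). Between bulk and sorted sh-B7-H3 (1) material, 3 were called at an absolute log2 fold change above 1 and 2 to 4 with a library left out.

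Between the shRNAs, VSIR was -0.0123 with FPKM as deposited, TNFRSF14 0.0697 and LGALS9 -0.0417 under quantile normalization, and TNFRSF14 0.12 under the leukocyte score. Quantile normalization gave CD274 -0.0216 between bulk and sorted sh-NC, LGALS9 0.22 between bulk and sorted sh-B7-H3 (1), and CD86 0.0309 in the interaction, where a pseudocount of 0.1 gave CD86 0.63. With single libraries left out, the ranges between the shRNAs were -0.0501 to 0.43 for CD274, -0.0157 to 0.35 for ICOSL, -0.22 to 0.14 for TNFRSF14 and -0.0928 to 0.21 for VSIR. They were -0.0711 to 0.40 for CD276 with sh-B7-H3 (2), -0.16 to 0.0522 for CD276 and -0.0556 to 0.72 for CD274 in bulk tumors, -0.21 to 0.26 for CD276 and -0.23 to 0.0756 for VTCN1 between bulk and sorted sh-NC, -0.10 to 0.0392 for LGALS9 and -0.33 to 0.22 for TNFRSF14 between bulk and sorted sh-B7-H3 (1), and -0.14 to 0.23 for ICOSL in the interaction.

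Outside the pair of sorted sh-B7-H3 groups, the replicate numbers did not pair the libraries, with correlations from -0.463 to 0.381 over the 18 same-numbered pairs in all, 5 of them over 0.1. A replicate block there took the VSIR call with sh-B7-H3 (1) (log2 fold change 0.61, limma adjusted p = 0.0539) and no other member's call. Depth limits CD86, CD80 and PDCD1LG2, which rest on few reads in sorted cells. The share of all genes called is itself unstable. Leaving out 1 library moved the number called from 1927 to between 140 and 4439 for bulk against sorted sh-NC, from 382 to between 35 and 890 between the shRNAs, and from 2520 to between 546 and 3793 in bulk tumors.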
